A study of Mus musculus with 6 samples.

Results

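The miR-26 family of the mouse consists of miR-26a-5p, miR-26b-5p and the opposite arms of their hairpins, miR-26a-1-3p, miR-26a-2-3p and miR-26b-3p. All 5 were found by name in the deposited table, which lists 1907 distinct mature miRNAs. They were measured by small RNA sequencing in liver of 3 female and 3 male C57BL/6N mice aged 12 weeks, which ate a standard chow diet. The animals are labelled as healthy littermates, and 1 library was counted as 1 animal. The labels name no transgene and no agent, and the females and males differ in sex alone by these labels. The study is about SAB, a mitochondrial protein, and the unequal severity of acute liver injury in females and males; these livers were uninjured.

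A miRNA hairpin is cut into a duplex of a 5p and a 3p arm, and usually one arm is loaded into an Argonaute protein and directs it to mRNAs that pair with the seed, bases 2 to 8. The miR-26 hairpins sit in introns of the Ctdsp genes, which encode small phosphatases that act on the C-terminal domain of RNA polymerase II and take part in silencing neuronal genes; in zebrafish, miR-26b represses the Ctdsp2 transcript that carries it. In liver, miR-26a is known as an abundant miRNA that restrains cell division through cyclins and the histone methyltransferase Ezh2, that is low in many hepatocellular carcinomas, and that in mice acts on insulin sensitivity. A study of patients with liver cancer reported more miR-26a and miR-26b in the liver of women than of men.

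The 3 hairpins are shown because their arms carry all the values below, with the mature 5p and 3p arms in capitals (RefSeq, GRCm38.p6, plus strand, 5′ to 3′):
Mir26a-1, chr9:119031796-119031885: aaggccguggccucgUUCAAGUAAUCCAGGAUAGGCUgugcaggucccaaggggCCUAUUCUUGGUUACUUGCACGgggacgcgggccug
Mir26a-2, chr10:126995530-126995613: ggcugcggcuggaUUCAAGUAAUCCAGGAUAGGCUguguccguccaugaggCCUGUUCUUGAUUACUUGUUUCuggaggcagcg
Mir26b, chr1:74394310-74394394: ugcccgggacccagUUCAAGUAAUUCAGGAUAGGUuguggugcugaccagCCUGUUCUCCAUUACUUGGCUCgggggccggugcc

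The mature sequences follow with the seed in capitals, since the seed groups the members:
miR-26a-5p: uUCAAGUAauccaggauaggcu
miR-26b-5p: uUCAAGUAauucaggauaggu
miR-26a-2-3p: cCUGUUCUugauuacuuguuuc
miR-26b-3p: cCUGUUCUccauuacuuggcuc
miR-26a-1-3p: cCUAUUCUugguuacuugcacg

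Both 5p arms begin with U and share the seed UCAAGUA, which no other mouse miRNA in the RefSeq table has. Counted from 1 at the 5′ end, miR-26b-5p differs from miR-26a-5p by C11U and C21U and is 21 bases long against 22, so the difference lies outside the seed. The 3p arms all begin with C and fall into 2 seeds. Those of Mir26a-2 and Mir26b share CUGUUCU, and the change G4A gives the arm of Mir26a-1 the seed CUAUUCU. The seed of miR-26a-2-3p and miR-26b-3p occurs in another 2 mouse miRNAs, miR-6932-3p and miR-7039-3p, each with at most 2 counts in a library. RefSeq sequences were found by name for 1623 of the 1907 listed miRNAs, with 61.6% of the counts, so the seeds of the rest were not compared.

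Each hairpin lies on the strand of its host gene. In the GENCODE M21 annotation (GRCm38), Mir26a-1 lies in intron 5 of Ctdspl on chromosome 9, 105343 bases after the start of the gene. Mir26a-2 lies in intron 5 of Ctdsp2 on chromosome 10, 16813 bases after the start, and Mir26b in intron 4 of Ctdsp1 on chromosome 1, only 2801 bases after the start. Intron numbers are those of the longest annotated protein-coding transcript. In Ctdsp2, another 2 annotated transcripts start at base 126995613, the last base of the hairpin. The table gives miR-26a-5p on 2 identical rows, the number of its loci in RefSeq, with the position in Mir26a-1 on both. The same 22 bases are made from Mir26a-1 and Mir26a-2, so reads of miR-26a-5p cannot be assigned to Ctdspl or Ctdsp2. The 3p arms differ and can. How reads with 2 loci were counted is not given in the sources consulted. Of 179 values between 0 and 10000 on the 60 miRNAs with 2 identical rows, 2 had a remainder of 0.5, which an even division of an odd count would leave. Whole values numbered 159 (88.8%), 96 of them odd, against 5350 of 5451 (98.1%) on miRNAs with 1 row. A remainder of 0.5 was also seen in 10 values on miRNAs with 1 row. On miRNAs with 3 or more rows 51 of 51 values were whole. All counts of miR-26a-5p exceeded 10000 and lay outside this check, so it does not settle how they were counted. Had reads been divided over the rows of miR-26a-5p, its level would be understated, so its ratio to miR-26b-5p would be larger and the 3p share of miR-26a smaller than given below.

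The total was 5756418, 3506853 and 3285249 counts in the 3 female libraries, against 6426337, 4617647 and 16444674 in the male ones. Levels are counts scaled to a library of 1000000 (CPM), with library sizes adjusted by TMM, which assumes that most miRNAs do not differ between libraries. Across the whole table, 25 of 370 tested miRNAs (6.76%) passed an adjusted p of 0.05 between the sexes, 12 higher in females (3.24%) and 13 lower (3.51%). The first principal component, with 51.6% of the variance, separated the sexes, with females at 2.11, 6.04 and 5.14 and males at -1.81, -8.21 and -3.28. Male replicate 2 stood apart at -8.21, and results without it are given below. Small RNA libraries capture some sequences better than others, so an order of levels between different miRNAs is an order of reads, not of molecules.

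The guide arm miR-26a-5p was one of the most abundant miRNAs of these livers. It had 199475, 118231 and 115341 counts in female libraries and 226245, 140113 and 567563 counts in male libraries. It ranked 8th, 8th and 7th among all miRNAs in females and 6th, 9th and 7th in males. Its share of all counts was 3.47, 3.37 and 3.51% in females, against 3.52, 3.03 and 3.45% in males, and these shares overlapped, with the lowest in male replicate 2. After TMM adjustment it stood at 32937, 32718 and 32876 CPM in females and at 35803, 33078 and 36043 CPM in males. On this scale all 3 females lay just below all 3 males, male replicate 2 by the smallest margin.

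The relative miR-26b-5p, which has the same seed, came from a single locus and was less abundant in every library. Its 21968, 13083 and 12220 counts in females stood for 3627, 3620 and 3483 CPM, and its 22720, 14318 and 63053 counts in males for 3595, 3380 and 4004 CPM. It ranked between 26th and 29th in every library. The sexes overlapped: male replicate 2 was the lowest of all libraries and male replicate 3 the highest.

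The 3p arms, usually degraded as passenger strands, were seen at far lower levels. Levels of miR-26a-2-3p were 25.9, 20.8 and 23.7 CPM in females and 27.7, 21.96 and 27.0 CPM in males, from 75 to 157 counts in females and 93 to 425 in males. Those of miR-26b-3p were 7.43, 9.13 and 12.0 CPM in females and 9.02, 10.9 and 10.9 CPM in males. Both sets of values overlapped between the sexes. The rarest member was miR-26a-1-3p, the product that marks the Ctdspl locus, with 12, 5 and 2 counts in females and 12, 10 and 24 in males. One count stood for 0.0635 to 0.285 CPM, so its levels of 1.98, 1.38 and 0.570 CPM in females and 1.90, 2.36 and 1.52 CPM in males rest on few reads.

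**Figure D1:**
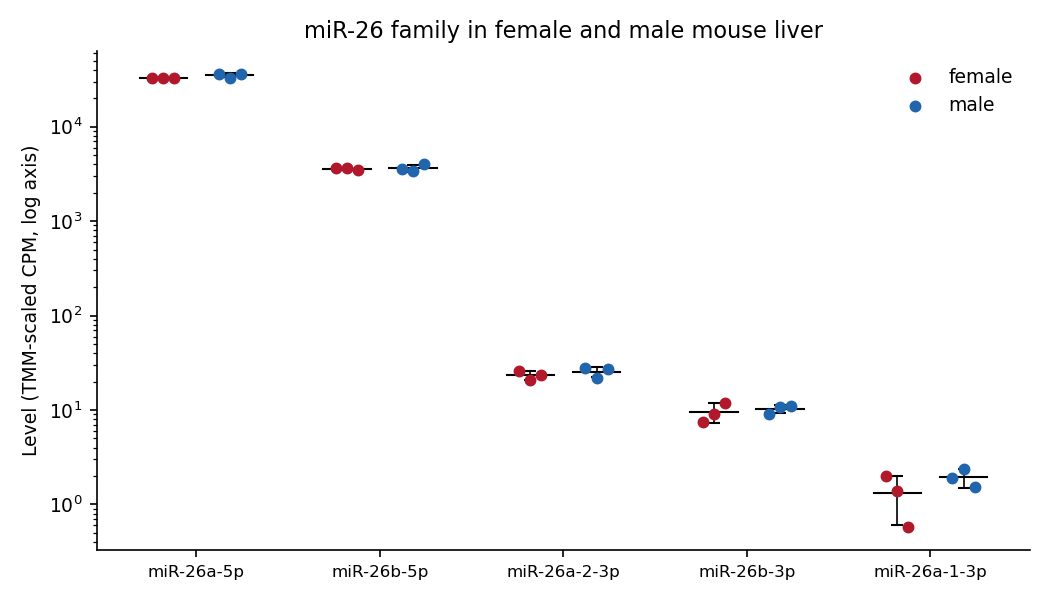
Level of each miR-26 member (TMM-scaled CPM, log axis) in 3 female and 3 male livers; points are libraries, horizontal lines are means and bars are SD. The members fall on separate levels, from miR-26a-5p near 33909 CPM on average to miR-26a-1-3p near 1.62 CPM, with females and males close together for both 5p arms and spread from 0.570 to 2.36 CPM for miR-26a-1-3p.

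No member passed the test between the sexes. The values, female first, averaged 32844 ± 113 against 34975 ± 1647 CPM for miR-26a-5p and 3577 ± 81.4 against 3660 ± 317 CPM for miR-26b-5p (SD, n = 3 each). The log2 fold change, female over male, of miR-26a-5p was -0.09 (SE 0.07). Its p, from the quasi-likelihood test of edgeR, adjusted over the 370 tested miRNAs by the Benjamini-Hochberg method, was 0.587. Its 95% interval, -0.25 to 0.06, bounds the female level between 0.843 and 1.05 times the male level. For miR-26b-5p the estimate was -0.03 on the log2 scale, with SE 0.10 and adjusted p = 0.896 in edgeR, and the interval of -0.26 to 0.19 bounds the female level between 0.838 and 1.14 times the male level. Only 3 of the 370 tested miRNAs had a smaller standard error than miR-26a-5p, so its bound is among the narrowest of this fit. These intervals hold for TMM and do not cover the choice of scaling, and with DESeq2 the SE of miR-26a-5p was 0.13.

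Although the 3 female values of miR-26a-5p lay below the 3 male values, 21.6% of all tested miRNAs also had groups that did not overlap, and the exact permutation p of 0.1 (two-sided) is the lowest possible for groups of 3. The sign of this difference rested on the scaling. With no normalization factor the log2 fold change of miR-26a-5p was 0.05, and with upper-quartile factors it was -0.18 (95% interval -0.35 to -0.01, adjusted p = 0.197, edgeR). The median over all tested miRNAs moved too: it was -0.01 with TMM, 0.13 with no factor and -0.10 with upper-quartile factors. Relative to that median miR-26a-5p stood at -0.08 in each of the 3, by construction, since a factor shifts all miRNAs nearly alike. With no low-count filter it stood at 0.013 relative to the median of that fit, and from -0.12 to -0.046 over fits without 1 library. Without male replicate 2 the log2 fold change of miR-26a-5p was -0.12 (adjusted p = 0.413, edgeR). In that fit miR-26b-5p stood at -0.08, miR-26a-2-3p at -0.21 and miR-26b-3p at -0.10 (adjusted p = 0.697, 0.626 and 0.868, edgeR).

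The 3p arms, with fewer counts, gave wider intervals. Females averaged 23.4 ± 2.59 and males 25.5 ± 3.13 CPM of miR-26a-2-3p (SD, n = 3 each), with a log2 fold change of -0.13 (95% interval -0.57 to 0.32, adjusted p = 0.796, edgeR). For miR-26b-3p the averages were 9.51 ± 2.29 CPM for females and 10.3 ± 1.08 CPM for males (SD, n = 3 each), with a log2 fold change of -0.13 (95% interval -0.67 to 0.41, adjusted p = 0.825, edgeR). These intervals bound the female level between 0.673 and 1.25 times the male level for miR-26a-2-3p, and between 0.626 and 1.33 times for miR-26b-3p. Too few counts of miR-26a-1-3p were present for it to pass the low-count filter. Its summed counts, 19 in females and 46 in males, gave a female to male ratio of 0.824 per adjusted library size (95% exact counting interval 0.456 to 1.43, for counting error only), where male replicate 3 gave 24 of the 46. The ratio of mean CPM, which weights animals equally, was 0.680, from 1.31 ± 0.708 CPM in females and 1.93 ± 0.419 CPM in males, with an exact two-sided permutation p of 0.3 (n = 3 each).

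All 4 tested members had a negative log2 fold change, with a median of -0.11, beside a median of -0.01 over all 370 tested miRNAs, of which 51.9% were negative. With no normalization factor all 4 were positive, from 0.0077 for miR-26b-3p to 0.11 for miR-26b-5p. These values still lay below the median of all tested miRNAs under that scaling, 0.13, because a factor shifts all miRNAs nearly alike. No member passed under any alternative fit.

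**Figure D2:**
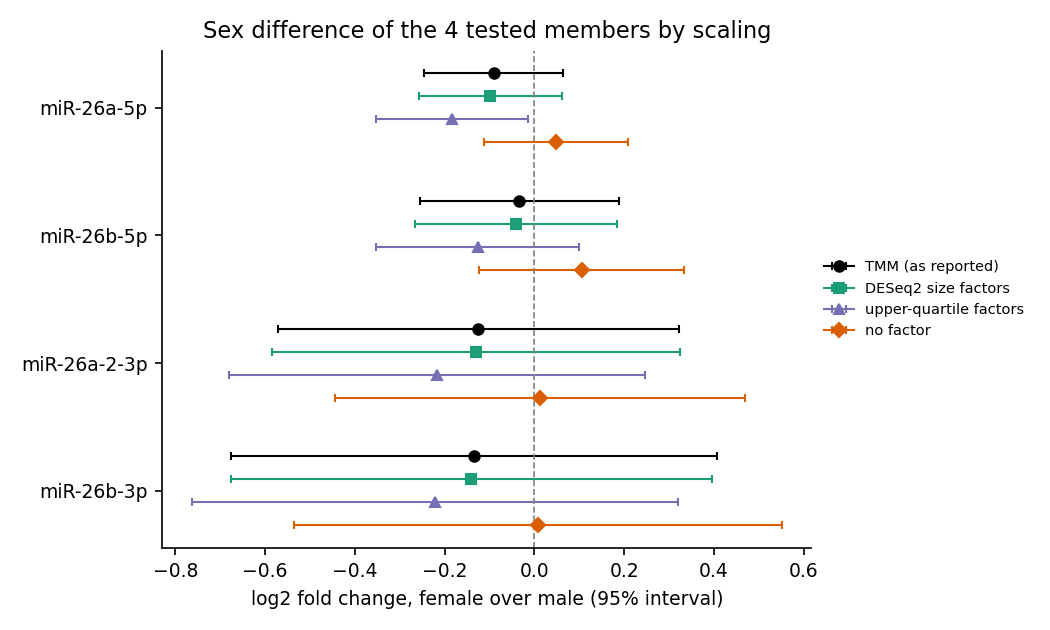
Log2 fold change, female over male, of the 4 tested members with its 95% interval (lines) under TMM and 3 other scalings (symbols). Intervals are narrow for the 5p arms and wide for the 3p arms, and the points move together with the scaling, from -0.18 to 0.05 for miR-26a-5p.

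Ratios between members of the same library do not depend on scaling. For each of 4 ratios the sexes were compared by an exact two-sided permutation test on log2 counts, where 3 against 3 allow no p below 0.1. None of the 4 differed beyond the spread between animals (exact permutation p = 0.4 to 0.9, and 0.9 for all after Benjamini-Hochberg adjustment over the 4). Without male replicate 2 the female minus male difference in the 5p to 3p ratio of miR-26b changed sign, at -0.0059, and the other 3 kept theirs.

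The balance of the guide arms was the tightest of these ratios. There were 9.08, 9.04 and 9.44 reads of miR-26a-5p for each read of miR-26b-5p in females and 9.96, 9.79 and 9.001 in males. The mean log2 ratio was 3.20 ± 0.03 in females and 3.26 ± 0.08 in males (SD, n = 3 each), a difference of -0.06 (exact permutation p = 0.4). As a share of both 5p arms, miR-26b-5p made up 9.92, 9.96 and 9.58% in females and 9.13, 9.27 and 9.999% in males. The sexes overlapped, since male replicate 3 had the highest share of all 6 libraries.

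The excess of 5p over 3p reads was large in both sexes. For each read of the 3p arms of miR-26a there were 1180, 1478 and 1357 reads of miR-26a-5p in females and 1210, 1360 and 1264 in males, a female minus male difference of 0.06 on the log2 scale (exact permutation p = 0.7, n = 3 each). For miR-26b the figures were 488, 396 and 291 in females and 399, 311 and 367 in males, a difference of 0.10 (exact permutation p = 0.9, n = 3 each). The sexes overlapped in both ratios, and the female libraries covered the wider range.

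Read as a share, the 3p arm made up 0.0676 to 0.0847% of the reads of miR-26a and 0.204 to 0.343% of those of miR-26b. The share was higher for miR-26b in 6 of 6 libraries, by 2.41- to 4.65-fold, with a mean of 1.82 ± 0.35 on the log2 scale (SD, n = 6; exact two-sided sign-flip permutation over libraries, p = 0.0312, the smallest it can give). This test was added after the shares had been seen. With 6 of 6 libraries on the same side, its p could only be the smallest possible. As libraries capture some sequences better than others, the p bears only on how repeatable this order of reads is, not on molecules. The libraries with the largest and the smallest ratio were both female.

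Arm use was compared over miRNAs with both arms in the table, with reads pooled over libraries and over loci that share a name. Among 100 miRNAs with a mean of at least 100 CPM, a set chosen after seeing the data, the minor arm had a median of 0.582% of the reads, and the 5p arm was the major one in 63. With 0.0784% miR-26a was the 19th most one-sided, and with 0.267% miR-26b was the 34th. Other abundant liver miRNAs had lower shares, such as miR-29a at 0.0152%, miR-27b at 0.0156% and miR-122 at 0.0178%, and miR-103 had 0 of 127571 reads, which allows a share of up to 0.00235%. Where both arms had to pass the low-count filter, the ranks were 9 and 16 of 104, with a median of 4.09%, but that filter removes miRNAs whose minor arm is rare. A rarer miRNA has fewer reads with which to show a small share, so these orders are descriptions.

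**Figure D3:**
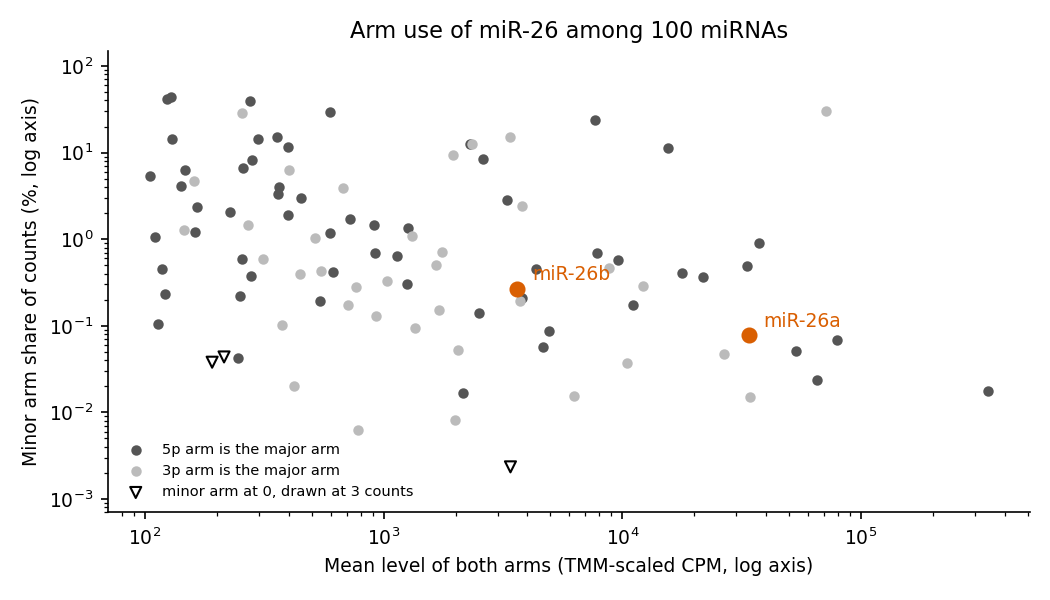
Share of the minor arm in the reads of each of 100 miRNAs (%, log axis) against the mean level of both arms (TMM-scaled CPM, log axis); dark points have a major 5p arm, pale points a major 3p arm, and triangles mark 3 miRNAs with no minor arm reads, drawn at the limit of 3 counts. The miR-26a and miR-26b points lie at 0.0784% and 0.267%, below the median of 0.582%.

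The 3p arms also show which miR-26a locus they came from. For each read of miR-26a-1-3p, from Ctdspl, there were 13.1, 15 and 41.5 reads of miR-26a-2-3p, from Ctdsp2, in females and 14.6, 9.30 and 17.7 in males. The highest value, in female replicate 3, rests on 2 reads of miR-26a-1-3p. As a share of both 3p arms, miR-26a-1-3p made up 7.10, 6.25 and 2.35% in females and 6.42, 9.71 and 5.35% in males. The exact binomial interval of the lowest, 0.286 to 8.24%, covered the values of the other libraries except the 9.71% of male replicate 2. The log2 ratio differed by 0.47 between females and males (exact permutation p = 0.6, n = 3 each). Without female replicate 3 the difference was 0.022, and with a pseudocount of 5 it was -0.033, so a single library with 2 reads carries it. A 3p arm can be more or less stable than another, so these reads do not give the part of each locus in miR-26a-5p.

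**Figure D4:**
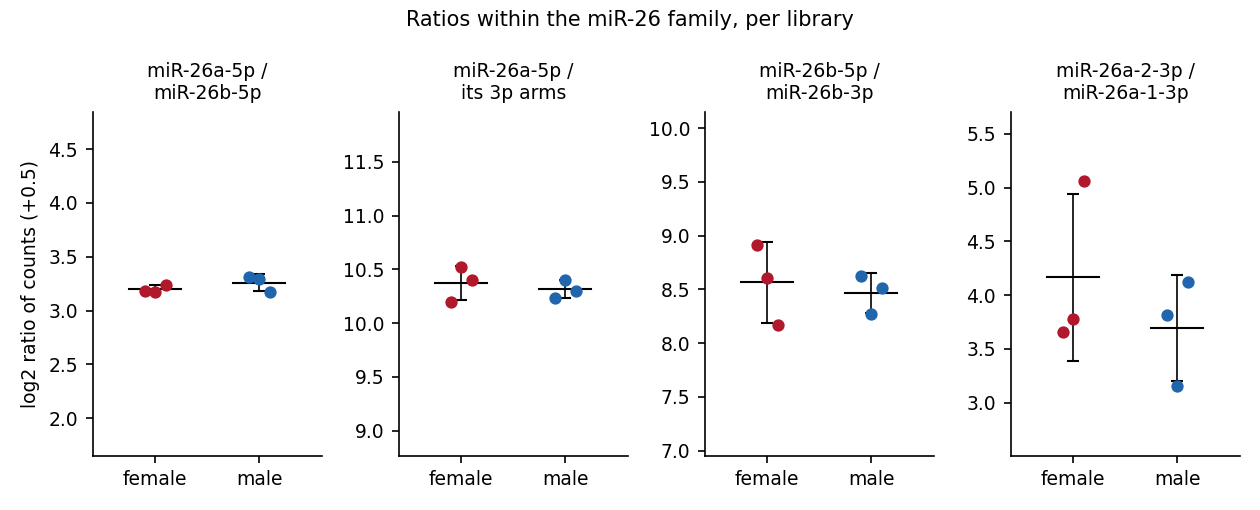
Log2 ratio of counts (0.5 added to each) between members of the same library, for 4 ratios, with females left and males right; points are libraries, lines are means and bars are SD, and every panel spans the same number of log2 units. The ratio of miR-26a-5p to miR-26b-5p is tight around 3.20 and 3.26, and the ratio of both miR-26a 3p arms spreads widest.

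Both guide arms varied little between animals. The highest library exceeded the lowest by 1.10-fold for miR-26a-5p and by 1.18-fold for miR-26b-5p, with coefficients of variation of 4.62% and 5.86% over the 6 libraries. The SD of log2 CPM was 0.07 for miR-26a-5p, the 4th lowest of 18 miRNAs within 4-fold of its level, whose median was 0.13. For miR-26b-5p it was 0.08, also the 4th lowest, of 41 with a median of 0.16. The low-count arms miR-26a-2-3p and miR-26b-3p had SDs of 0.16 and 0.24 and ranked 21st of 160 and 41st of 174. TMM adjustment uses the abundant miRNAs themselves, and this order was computed after it.

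**Figure D5:**
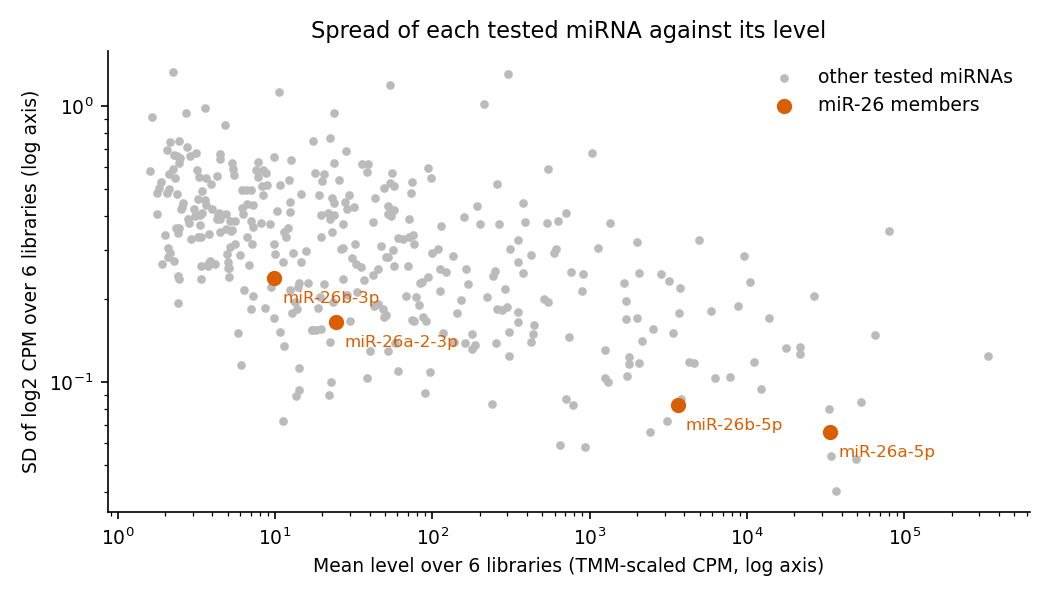
SD of log2 CPM over the 6 libraries (log axis) against mean level (TMM-scaled CPM, log axis) for each of the 370 tested miRNAs. The 4 tested members, in orange, lie in the lower part of the cloud at their level, with miR-26a-5p at 0.07 and miR-26b-5p at 0.08.

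Likeness of pattern was measured as the root mean square difference of centred log2 CPM over the 6 libraries, among 113 other miRNAs with a mean of at least 100 CPM. The miRNA closest to miR-26b-5p was miR-26a-5p, at 0.06, where the median miRNA lay at 0.19. Next came miR-148b-3p and miR-29a-3p. For miR-26a-5p the closest was miR-23a-3p at 0.03, followed by miR-26b-5p at 0.06 and miR-126a-3p at 0.06, with a median of 0.18. These are descriptions of 6 libraries, and miRNAs of little spread are close to each other by construction.

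Other miRNAs known to target Ezh2, as miR-26a does, also passed in neither direction. Of 9 such names 7 were tested, 0 were higher and 0 lower, and the median log2 fold change was -0.06. The most abundant were let-7a-5p at -0.11 and let-7c-5p at -0.21 (adjusted p = 0.477 and 0.178, edgeR). A second list held other intronic miRNAs whose host genes have paralogues. Of its 10 names 6 were tested, 0 were higher and 0 lower, and the median was 0.12. Its most abundant members, miR-103-3p and miR-107-3p of the pantothenate kinase genes, stood at 0.02 and 0.22 (adjusted p = 0.959 and 0.348, edgeR). The largest positive values of this list, 0.45 and 0.40, were those of miR-33-5p and miR-33-3p, the arms of 1 hairpin, and 2 of the 6 were negative. That median therefore leans on miR-33. In each list the calls are to be read beside the 25 of 370 tested miRNAs (6.76%) that passed, a number that fell to 9 of 399 without female replicate 2, 10 of 400 without female replicate 3 and 12 of 377 without male replicate 3.

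The liver label was borne out by miR-122-5p, the hepatocyte miRNA, which averaged 315746 CPM over the females and 363970 CPM over the males. Markers of other cells in the tissue were all detected and tested. Leukocyte markers summed to 4038 to 4592 CPM in females and 2898 to 4452 CPM in males, with 5 of 5 log2 fold changes positive. Of these 1 was past the threshold by a small margin, miR-223-3p at 0.62 (adjusted p = 0.0467, edgeR). Stromal markers summed to 9314 to 11775 CPM in females and 12511 to 13051 CPM in males. Most of that sum was miR-143-3p, which averaged 8078 CPM in females and 9370 CPM in males. Of the stromal log2 fold changes 5 of 6 were negative, miR-335-5p was positive at 0.25, and none was past the threshold. Marker sums and signs are on the TMM scale. They are to be read beside all 370 tested miRNAs, of which 6.76% passed and 51.9% were negative. The part of these markers in the miR-26 levels was not tested. In bulk liver, fewer cells of a type and less miRNA per cell cannot be told apart.

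Endothelial markers summed to 67757 to 71793 CPM in females and 68743 to 76011 CPM in males, with log2 fold changes of -0.07 (miR-126a-3p) and 0.02 (miR-126a-5p). Erythroid markers summed to 223 to 378 CPM in females and 235 to 275 CPM in males, with 4 of 4 log2 fold changes positive, and biliary and epithelial markers to 1574 to 1774 CPM in females and 1697 to 1993 CPM in males, with 6 of 6 negative. None of these passed. Their signs depend on the scaling, since the median of all tested miRNAs was -0.01 with TMM and 0.13 with no normalization factor. With TMM 51.9% of all tested miRNAs were negative. The signs within a list are also not independent, as miR-144-3p and miR-144-5p are arms of 1 hairpin. Of 7 hepatocyte markers 5 were positive and 1, miR-802-5p, was higher in females at 2.29 (adjusted p = 0.000106, edgeR). Their sum on the TMM scale was nevertheless lower in females, at 407413 to 408276 CPM against 433966 to 474621 CPM in males, without overlap. The TMM factors, 1.03 to 1.07 in females and 0.917 to 0.983 in males, lower female and raise male values. The overlap of this sum without them was not tested, and 21.6% of all tested miRNAs also had groups that did not overlap. The most abundant hepatocyte marker, miR-122-5p, made up most of this sum. It was negative at -0.21 and did not pass (adjusted p = 0.0530, edgeR). Any part of hepatocyte content in the miR-26 levels was not tested.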

How the data were processed

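The deposited values are the authors' estimated counts for each mature miRNA, made from aligned reads without normalisation. The submitters' processing notes name Partek, Bowtie and mm10; versions, trimming and how multiply matching reads were treated are not given in the sources consulted. Per the labels' protocols, library construction used a kit from Qiagen. Of 2045 rows, 138 repeated another row and were kept once. Positions of the members equal those of RefSeq (GRCm38.p6) once the stop column is read as the base after the end.

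Counts were rounded and fitted in edgeR 4.0.16 (R 4.3.3) over the whole table, with TMM and the robust quasi-likelihood test. Low counts were removed by filterByExpr (minimum count 10, minimum total 15). The test was checked on simulated data for power and sign at fold changes larger than those of the members. That check does not bear on the intervals given here. Log2 fold changes are female over male, and 95% intervals come from the fitted standard errors. DESeq2 1.42.0 and limma 3.58.1 gave alternatives. Ratios used counts plus 0.5; log2 CPM used a pseudocount of 0.5. Arms of multi-locus miRNAs were pooled by name. The 5 members were always named; other miRNAs were named as the nearest patterns, or from lists as members past the threshold or otherwise the most abundant. Members and lists were chosen with earlier results of these data known. Replicates were numbered in accession order. Sample titles number the males before the females, so any effect of that order and sex cannot be told apart. Intervals on counts cover counting error only: PCR copies are not independent molecules.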

Additional observations from a re-analysis of the deposited data

How the results depend on the processing

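No member passed the threshold in any of the fits run. With no normalization factor all 4 tested members turned positive: 0.048 for miR-26a-5p, 0.11 for miR-26b-5p, 0.012 for miR-26a-2-3p and 0.0077 for miR-26b-3p; the factor shifts all miRNAs nearly alike. After thinning to the smallest total, miR-26b-3p stood at 0.26 and the log2 ratio of miR-26b-5p to miR-26b-3p at -0.28. With a pseudocount of 5 the ratio of miR-26a-2-3p to miR-26a-1-3p was -0.033, where the rarer arm had 2 to 24 counts. Over fits that left out 1 library, log2 fold changes ranged from -0.12 to -0.067 for miR-26a-5p, -0.082 to 0.038 for miR-26b-5p, -0.23 to -0.055 for miR-26a-2-3p and -0.32 to 0.020 for miR-26b-3p. The ratios ranged from -0.10 to -0.031 for miR-26a-5p to miR-26b-5p, -0.015 to 0.15 for miR-26a-5p to its 3p arms, -0.080 to 0.29 for miR-26b-5p to miR-26b-3p and 0.022 to 0.73 for the miR-26a 3p arms. The value of 0.038 for miR-26b-5p came without male replicate 3, and that of 0.020 for miR-26b-3p without female replicate 1. The number of miRNAs past the threshold was 13 with a minimum count of 50, where 246 were tested, and 9 to 32 without a library; leaving out female replicate 2 gave 9, female replicate 3 gave 10 and male replicate 3 gave 12. Where no cause is given, the cause was not tested. No paired analysis was run, because the sample labels used name no litter and no other pairing of females with males. Any effect of litter was not tested. Depth limits the 3p arms: miR-26a-1-3p entered the fit with no filter, at -0.38 (95% interval -1.44 to 0.67; adjusted p = 0.792, edgeR), and 3 of the fits that left out a library, at -0.37 (no female replicate 2), -0.065 (no female replicate 3) and -0.21 (no male replicate 2) (adjusted p = 0.880, 0.974 and 0.843, edgeR). The ranks of miR-26a and miR-26b by minor arm share, 9 and 16 where both arms passed the filter, were 19 and 34 among miRNAs of at least 100 CPM whatever their minor arm, a set chosen after seeing the data.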
